A study of Mus musculus with 12 samples.

Results

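The genes described here are 40 protein-coding genes that copy DNA or supply its building blocks, out of 48526 gene rows in each count file. They were taken from a fixed list of symbols, and all 40 were found once among the files' Ensembl identifiers. By role, 6 encode the core of the replicative helicase (Mcm2 to Mcm7), 10 load or activate it (Orc1, Orc6, Cdc6, Cdt1, Mcm10, Cdc45 and Gins1 to Gins4), 8 are primase and polymerase subunits, 10 form the sliding clamp, its loader, single-strand binding, flap removal and ligation, 4 make deoxynucleotides, and 2 assemble chromatin behind the fork. Their values were read in 12 libraries of small-intestinal epithelium from 4 female mice aged 3 months.

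Each mouse gave 3 libraries: input RNA without selection and pulldowns with the antibodies J2 and K1, both raised against double-stranded RNA. The 2 DKO mice, labelled KAT2A/KAT2B DKO, had received tamoxifen at 100 mg/kg on 4 days to delete the lysine acetyltransferase genes Kat2a and Kat2b. The 2 control mice had received vehicle without tamoxifen, and all tissue was collected 2 days after treatment ended. The recombinase, the promoter that drives it and the genotype of the controls are not given in the sources used here, and an effect of tamoxifen cannot be told apart from an effect of the deletion. The 6 groups therefore hold 2 libraries each, so every p-value rests on only 2 animals per genotype.

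Replication starts when the origin recognition complex, Cdc6 and Cdt1 load the Mcm2 to Mcm7 ring onto DNA in G1. Kinases, Cdc45 and the GINS complex then turn the ring into a moving helicase, polymerase alpha with primase lays down primers, and polymerases epsilon and delta extend them on the clamp encoded by Pcna. In the small intestine this machinery belongs to the crypts, where stem cells and transit-amplifying cells divide, while cells on the villus have left the cycle. Many of these genes are known targets of E2F transcription factors, which switch them on as cells enter S phase.

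Because the genes moved largely together, the sequence before their start sites was read from RefSeq windows (GRCm38.p6, 250 bases before to 50 after the start). A window was found for 33 of the 40 genes. The letters TTTCCCGC, TTTGGCGC, TTTCGCGC and TTCCCGCC, which are E2F-type motifs, were searched on both strands, where the first and the last of them can overlap each other. At least 1 of them lay in 16 of the 33 windows (48.5%), in 6.5% of the windows of the 10377 genes tested in input that had one, and in 3.5% of all 32851 windows of the table. The shorter CCAAT box (CCAAT), also on both strands, lay in 63.6%, 38.3% and 37.4% of the same sets. The windows below are the 4 genes with a match that changed most in input and the gene that changed least, Pola2, which held none of these letters. They are printed 5′ to 3′ with E2F-type matches in capitals.
Pold1, chr7:44548766-44549065, minus strand: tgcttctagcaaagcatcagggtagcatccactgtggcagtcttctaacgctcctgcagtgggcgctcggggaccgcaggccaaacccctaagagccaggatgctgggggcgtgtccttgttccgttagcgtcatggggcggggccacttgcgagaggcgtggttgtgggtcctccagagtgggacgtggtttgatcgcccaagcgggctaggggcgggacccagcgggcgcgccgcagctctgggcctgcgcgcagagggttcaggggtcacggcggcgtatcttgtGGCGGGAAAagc
Mcm6, chr1:128359656-128359955, minus strand: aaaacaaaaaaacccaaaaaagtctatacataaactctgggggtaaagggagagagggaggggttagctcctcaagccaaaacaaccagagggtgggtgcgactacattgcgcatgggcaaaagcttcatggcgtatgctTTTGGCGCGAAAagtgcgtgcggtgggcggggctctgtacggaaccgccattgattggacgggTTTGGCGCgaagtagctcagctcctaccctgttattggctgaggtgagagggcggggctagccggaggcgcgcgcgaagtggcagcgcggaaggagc
Rrm1, chr7:102441445-102441744, plus strand: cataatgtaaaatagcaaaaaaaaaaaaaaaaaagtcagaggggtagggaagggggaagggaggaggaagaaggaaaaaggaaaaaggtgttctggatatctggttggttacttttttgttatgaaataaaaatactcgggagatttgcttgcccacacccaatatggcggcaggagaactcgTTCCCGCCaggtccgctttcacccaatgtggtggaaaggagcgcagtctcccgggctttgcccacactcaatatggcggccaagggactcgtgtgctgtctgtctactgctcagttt
Pola1, chrX:93632106-93632405, minus strand: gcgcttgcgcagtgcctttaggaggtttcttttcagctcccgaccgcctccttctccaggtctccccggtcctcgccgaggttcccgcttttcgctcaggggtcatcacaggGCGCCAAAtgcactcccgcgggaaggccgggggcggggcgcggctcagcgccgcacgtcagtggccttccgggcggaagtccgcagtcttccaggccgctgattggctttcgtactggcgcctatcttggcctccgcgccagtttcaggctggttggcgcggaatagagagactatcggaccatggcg
Pola2, chr19:5964157-5964456, minus strand: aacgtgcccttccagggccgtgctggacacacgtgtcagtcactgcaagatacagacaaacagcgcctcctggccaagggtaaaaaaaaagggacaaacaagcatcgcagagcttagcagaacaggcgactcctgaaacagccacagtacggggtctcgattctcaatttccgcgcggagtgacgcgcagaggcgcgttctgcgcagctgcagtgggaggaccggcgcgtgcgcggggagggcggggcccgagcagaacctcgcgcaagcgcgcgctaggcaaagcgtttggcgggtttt

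The windows of Pold1, which holds the catalytic subunit of polymerase delta, and of Mcm6, a helicase subunit, held overlapping matches, and Mcm6 held 3 in all. Among the genes with a window, 16 with a match were tested in input and 14 of them were lower in DKO by the test below, with log2 fold changes from -1.65 to -0.90 and a median of -1.32. Of the 16 tested genes without a match 8 were lower, the range was -1.64 to 0.23 and the median was -0.94. The 6 genes nearest to no change with a window (Rrm2, Pola2, Pcna, Rfc5, Mcm10 and Rfc1) were all among those without a match, and they were singled out after their values were seen. Over all genes with a window, 20.7% of 673 with a match and 17.4% of 9704 without one were called lower, with medians of -0.09 and 0.01. These are matches of letters and say nothing of whether a factor was bound. Sites that differ from the searched letters were not sought, so a window without a match may still hold an E2F site.

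**Figure D1:**
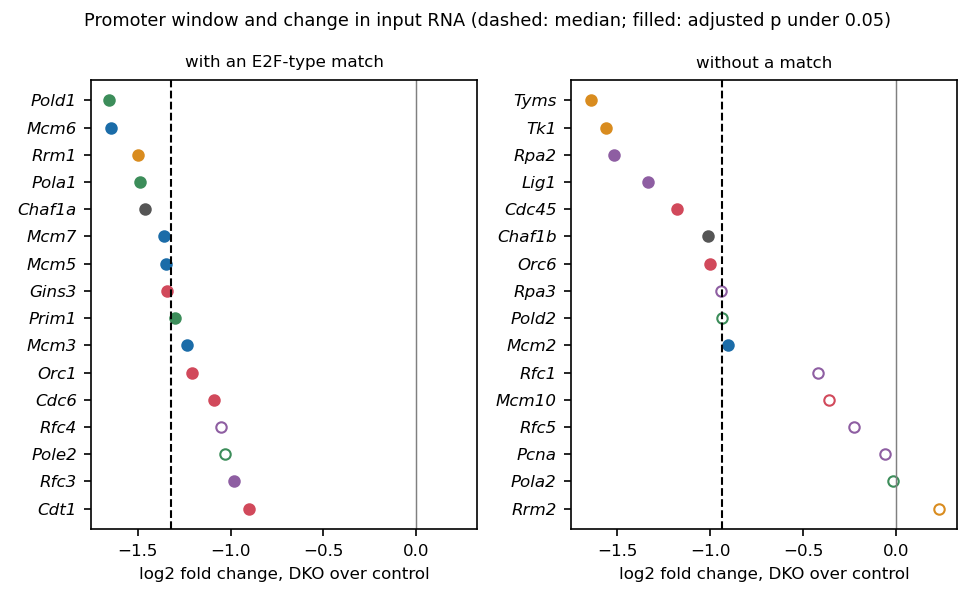
Log2 fold change of DKO over control in input RNA (x axis) for the 32 tested replication genes with a RefSeq promoter window, split by whether the window holds an E2F-type match. Points are genes, filled where the adjusted p was under 0.05 and coloured by role; the dashed lines are the medians of -1.32 and -0.94, and all 6 genes nearest to 0 are on the right.

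The depth over genes was 10307281 to 11474107 counts in input, 13308021 to 16139531 in control pulldowns and 2220291 to 5826361 in DKO pulldowns. The targeted genes were lower in DKO in each kind of library: Kat2b had 359 and 343 counts in control input and 118 and 114 in DKO, and Kat2a 222 and 228 against 84 and 148. Both falls in input passed the test (log2 fold change -1.51, SE 0.165, edgeR adjusted p 6.31e-04, and -0.88, SE 0.227, adjusted p 0.0205). Markers of epithelium summed to 7530 to 9097 CPM (counts relative to the TMM-scaled library total) in the input libraries, against 105 to 165 CPM for 12 markers of intraepithelial lymphocytes and plasma cells and 7.38 to 13.5 CPM for 8 markers of mesenchyme and endothelium. The DKO pulldown libraries stood apart. The second DKO animal's J2 library had 5597 CPM of enterocyte markers and the first 29780 CPM, against 24050 and 25870 in control, and the mesenchyme and endothelium markers summed to 43.7 to 211 CPM in DKO pulldowns and 9.17 to 42.9 CPM in control pulldowns. The correlation of log2 CPM across genes between replicates was 0.891 in DKO J2 and 0.942 in DKO K1, and 0.983 to 0.989 in the other groups.

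In input RNA the replication genes were lower in DKO as a group. Of the 39 genes with enough counts to be tested, 27 fell and 0 rose, while over all 15088 genes 17.1% were called lower and 18.8% higher (edgeR quasi-likelihood test, adjusted p under 0.05 over all genes). Their median log2 fold change was -1.09, against 0.00 for all genes, and 38 of the 39 values were negative. Both DKO libraries lay below both control libraries for 35 of the 39, as they did for 36.8% of all genes, and 0 lay wholly above. Summed over the 40 genes, control input reached 737 and 701 CPM and DKO input 341 and 417 CPM. The first DKO animal was below the second for 34 of the 39 genes. In these bulk samples fewer dividing cells and less RNA per dividing cell cannot be told apart.

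The count of calls depended on the fit more than the direction did. A single fit of all 12 libraries, which shares the wider spread of the pulldowns, called 14 of the genes lower and 0 higher.

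**Figure D2:**
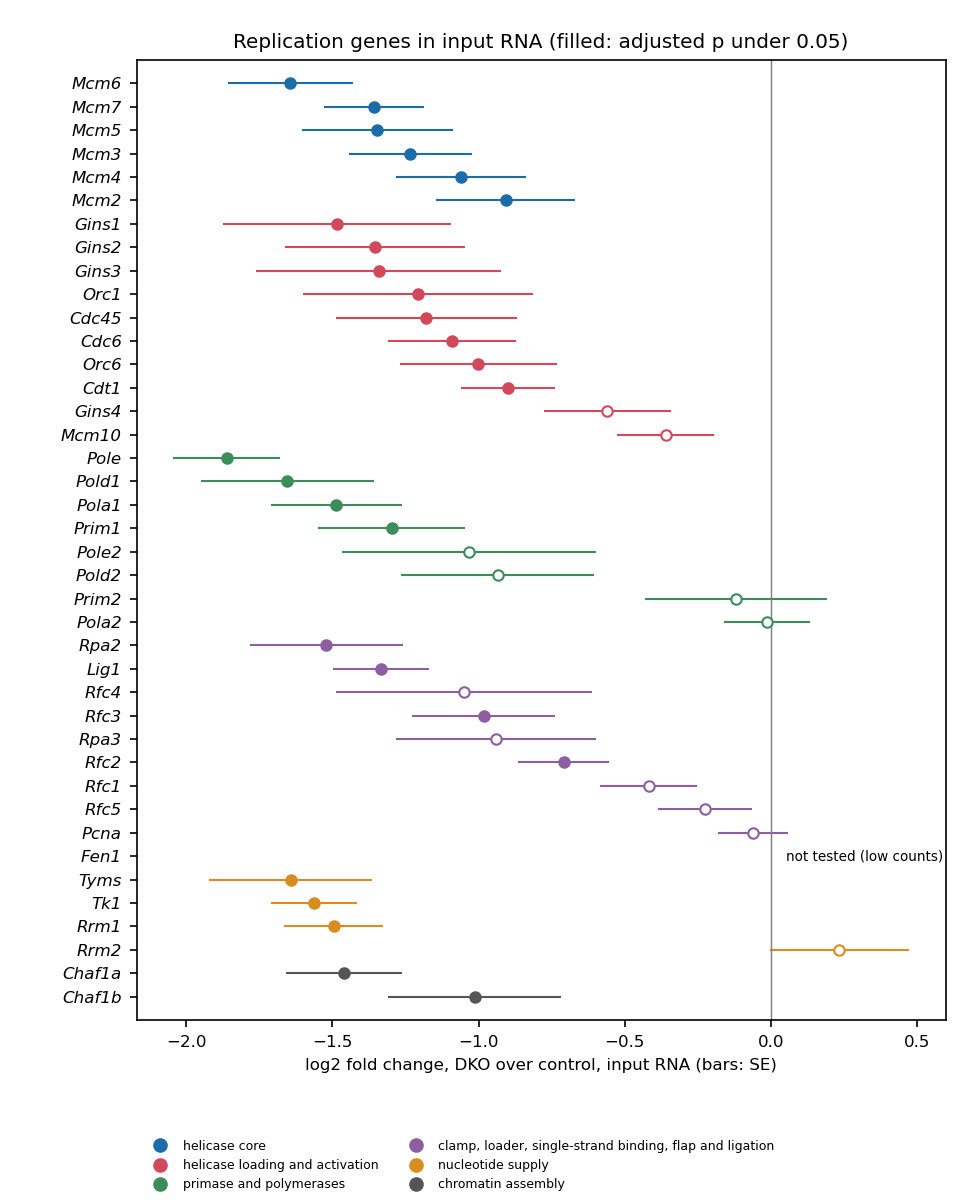
Log2 fold change of DKO over control in input RNA (x axis, bars are SE) for the 40 replication genes, grouped and coloured by role. Filled points passed the test; 38 of 39 points lie left of 0, with Rrm2 at 0.23, and Fen1 had too few counts to be tested.

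The counts by role that follow are to be read against the 17.1% of all genes called lower in input. All 6 helicase core genes fell, from -0.91 for Mcm2 to -1.64 for Mcm6, with a median of -1.29. Mcm6 (chromosome 1, 128331590 to 128359664, GRCm38) had 450 and 463 counts in control input and 99 and 179 in DKO. That is 40.1 ± 2.00 CPM against 12.8 ± 4.17 CPM (SD, n = 2), a 3.13-fold fall (SE 0.214 on the log2 scale, edgeR adjusted p 0.00127). Every DKO value was below every control value for this gene. Mcm5 had 382 and 363 counts against 92 and 188 (log2 fold change -1.35, edgeR adjusted p 0.00627), again without overlap. Mcm7 fell by 1.36, from 478 and 442 counts to 140 and 201, and its transcripts share up to 92.5% of their length with near-identical sequence of Gm5487, so its count is uncertain. Mcm3 and Mcm4 fell by 1.23 and 1.06 on the log2 scale. Mcm2, whose protein is the part of the ring that also binds histones, went from 311 and 355 counts to 115 and 223.

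Of the 10 genes that load or activate the helicase, 8 fell. The GINS complex keeps Cdc45 and the ring together, and 3 of its 4 genes fell. Gins1 went from 42 and 35 counts to 8 and 18 (log2 fold change -1.48, SE 0.389, edgeR adjusted p 0.0221). Gins2 went from 41 and 38 counts to 14 and 15 (-1.35, adjusted p 0.0125), and 67.3% of its exon length is shared with Gse1 on the other strand, so reads there cannot be assigned without strand. Gins3 went from 21 and 25 counts to 5 and 12 (-1.34, adjusted p 0.0406). These 3 genes rest on few counts, and their standard errors of 0.31 to 0.42 were among the widest of the called genes. Gins4, at 96 and 107 against 55 and 75 counts, did not pass (-0.56, adjusted p 0.0809). Among the licensing factors, Orc1 (-1.21), Orc6 (2.00-fold lower), Cdc6 (-1.09), and Cdt1 (-0.90), which the cell destroys after S phase begins, all fell, as did Cdc45 (-1.18). Mcm10, which helps to open the helicase, had 301 and 288 counts in control and 226 and 205 in DKO and did not pass (log2 fold change -0.36, SE 0.166, edgeR adjusted p 0.130). Its groups did not overlap in CPM.

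Of the 8 primase and polymerase genes, 4 fell. Pole, the catalytic subunit of polymerase epsilon (chromosome 5, 110286306 to 110337474), had the largest fall of all 39 genes. Counts fell from 282 and 294 to 62 and 88, or 25.3 ± 1.02 CPM against 6.93 ± 1.12 CPM (SD, n = 2), 3.63-fold lower (SE 0.183 on the log2 scale, edgeR adjusted p 4.22e-04). Both DKO values lay below both controls. Pold1 had 252 and 297 counts against 50 and 116 (log2 fold change -1.65, edgeR adjusted p 0.00475). Pola1, the catalytic subunit that extends primers, had 169 and 162 counts against 45 and 67 (-1.49, adjusted p 0.00233). Prim1, which makes the RNA primer, fell by 1.30 on the log2 scale, from 76 and 83 counts to 25 and 36.

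Pola2, the second subunit of polymerase alpha, had 248 and 312 counts in control and 259 and 260 in DKO (log2 fold change -0.02, SE 0.147, edgeR adjusted p 0.945). Its groups overlapped in CPM, at 22.9 and 26.1 against 25.7 and 22.8. Prim2, the large primase subunit, had 85 and 54 counts against 51 and 71 (-0.12, adjusted p 0.790), also with overlap. Pold2 fell unevenly between the animals and did not pass, with 345 and 377 counts in control and 99 and 263 in DKO (-0.94, adjusted p 0.0613). Pole2, at 36 and 33 against 8 and 24 counts, did not pass either (-1.03, adjusted p 0.102). Whether the fold changes of Pola1 and Pola2, or of Prim1 and Prim2, differ from each other was not tested.

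Among the clamp, loader and ligation genes 4 of 9 tested fell. Lig1, the ligase that seals Okazaki fragments, went from 369 and 373 counts to 115 and 164 (log2 fold change -1.33, SE 0.166, edgeR adjusted p 0.00104). Rpa2, a subunit of the single-strand binding complex, went from 94 and 88 to 24 and 36 counts (-1.52, adjusted p 0.00412). Of the clamp loader, Rfc3 (-0.98, adjusted p 0.0181) and Rfc2 (-0.71, adjusted p 0.0111) fell. Rfc1 (-0.42, adjusted p 0.0860), Rfc4 (-1.05, adjusted p 0.0997) and Rfc5 (-0.23, adjusted p 0.304) did not pass. Rpa3 went from 48 and 41 to 15 and 29 counts without passing (-0.94, adjusted p 0.0679).

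Pcna, the clamp that holds polymerases on DNA, did not pass. It had 393 and 471 counts in control and 361 and 418 in DKO, which is 37.8 ± 2.19 CPM against 36.2 ± 0.655 CPM (SD, n = 2; log2 fold change -0.06, SE 0.120, edgeR adjusted p 0.719). The groups overlapped, with DKO at 35.8 and 36.7 CPM and control at 36.2 and 39.3. Up to 65.9% of its transcript is near-identical to Pcna-ps2, which had 36 and 52 counts in control input and 13 and 15 in DKO, so the split of reads between them is uncertain. Fen1, the flap nuclease, had 4 and 7 counts against 2 and 1 and was not tested, and 84.2% of its exon length is shared with genes on the other strand.

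In the nucleotide supply group 3 of 4 genes fell. Tyms, which makes thymidylate (chromosome 5, 30058202 to 30073617), went from 221 and 211 counts to 43 and 89 (log2 fold change -1.64, SE 0.279, edgeR adjusted p 0.00388). Tk1, the thymidine salvage kinase, went from 360 and 404 to 108 and 136 counts (-1.56, SE 0.146, adjusted p 3.57e-04). The groups were well apart for both genes. Rrm1, the large subunit of ribonucleotide reductase, went from 351 and 382 to 100 and 146 counts (-1.50, SE 0.169, adjusted p 7.17e-04).

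Rrm2, the small subunit whose supply sets the activity of ribonucleotide reductase in S phase (chromosome 12, 24708241 to 24714146), was the 1 gene of the 39 with a positive value. It had 236 and 204 counts in control and 282 and 202 in DKO, or 19.4 ± 3.34 CPM against 22.8 ± 7.22 CPM (SD, n = 2; log2 fold change 0.23, SE 0.238, edgeR adjusted p 0.478). The second DKO animal, at 17.7 CPM, lay between the controls at 17.0 and 21.8, and without the first DKO animal the value was -0.12. Its transcript shares up to 51.8% with Gm48445 and Gm48455, which adds uncertainty to its count. The chromatin assembly genes Chaf1a (175 and 169 against 54 and 64 counts, -1.46, edgeR adjusted p 0.00153) and Chaf1b (82 and 73 against 26 and 47, -1.01, adjusted p 0.0327) both fell. Chaf1a shares 52.5% of its exon length with Ubxn6 on the other strand.

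**Figure D3:**
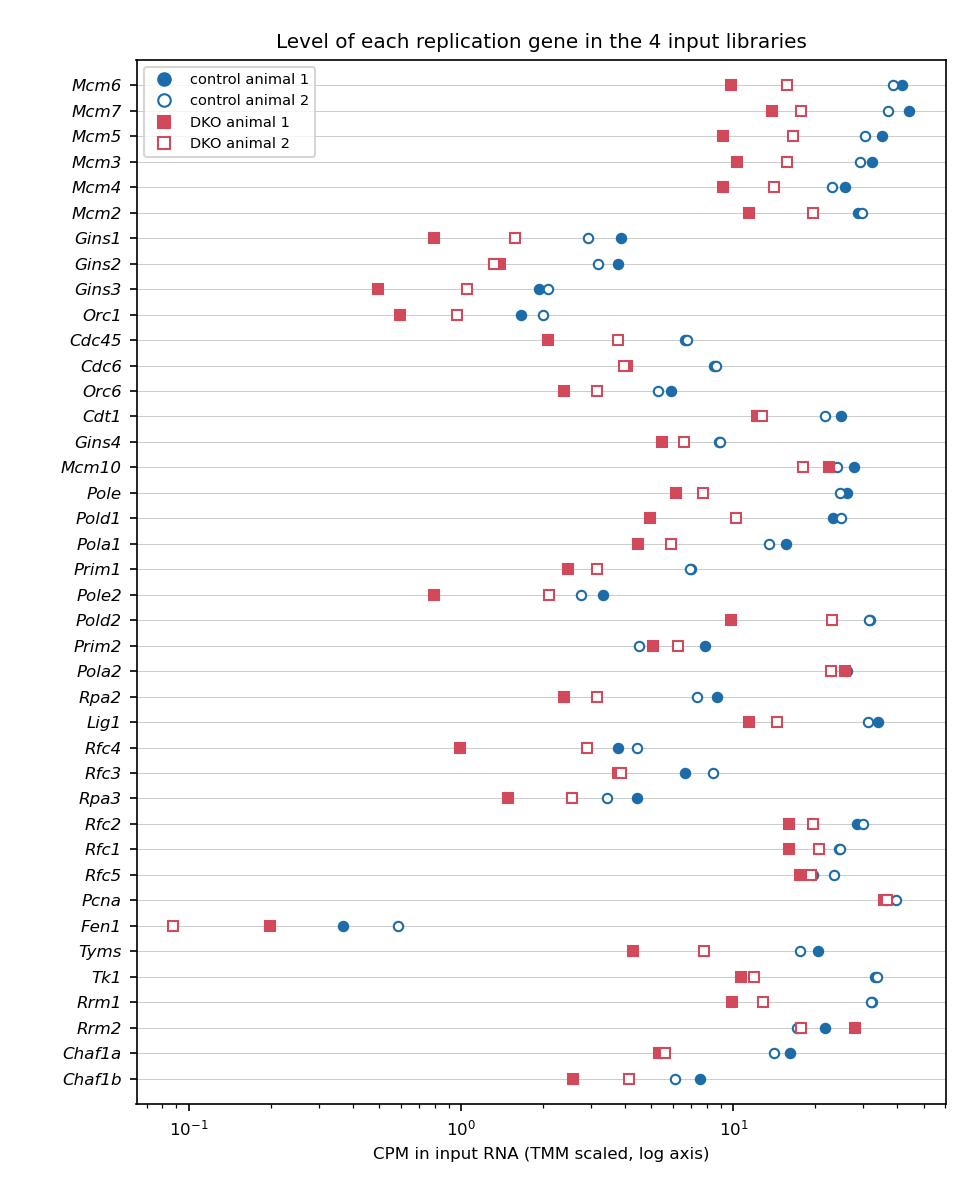
CPM in input RNA (log x axis) of the 40 replication genes in each of the 4 input libraries, with control animals as circles and DKO animals as squares. For 35 of the 39 tested genes both squares lie left of both circles; Pcna, Pola2, Prim2 and Rrm2 are the tested genes whose groups overlap.

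Per kilobase of exon, the most abundant of the 40 genes in control input were Pold2 at 16.7 ± 0.122 CPM per kilobase (SD, n = 2), Pcna at 15.8 ± 0.913 and Mcm7 at 9.15 ± 1.14. In DKO input these levels were 8.68 ± 4.95, 15.1 ± 0.273 and 3.56 ± 0.603 CPM per kilobase. Pcna and Rrm2 (8.24 ± 2.60) stood beside Pold2 as the 3 highest in DKO, and Pold2 there was too variable to be ordered against Rrm2. The lowest in control were Fen1 at 0.197 ± 0.0630, Orc1 at 0.527 ± 0.0701 and Gins3 at 0.743 ± 0.0395 CPM per kilobase. Fen1 shares 84.2% of its exon length with genes on the other strand, and the counts were made without strand, so its level is uncertain. The level of Mcm7 is uncertain too, for its likeness to Gm5487. Exon length here merges the exons of all annotated transcripts of a gene, so the order depends on the annotation.

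Of the 40 genes, 14 share exon bases with another gene and 20 have a transcript with a near-identical stretch in another gene (100 bases or more at 97% identity or higher). Of the 20 genes with neither, 14 fell and 0 rose in input, with a median of -1.08, when 17.1% of all genes were called lower and 18.8% higher.

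Other genes of the same processes, in lists that share no gene with the 40, moved in part. Of 37 other origin and fork genes 16 fell and 2 rose, with a median log2 fold change of -0.58. Chtf18 (-1.99), Top2a, which untangles copied DNA (-1.82), Timeless (-1.73), the origin firing factor Ticrr (-1.67), the checkpoint adaptor Clspn (-1.54) and Wdhd1 (-1.33) fell, while Pold4 (1.04) and Donson (0.88) rose. Of 30 tested other nucleotide genes 7 fell and 3 rose (median -0.30), to be read against the 17.1% lower and 18.8% higher over all genes. Among those that fell were Shmt1 (-1.26), Paics (-1.21), Dctpp1 (-1.04) and Dtymk (-0.94). The risers were Impdh1 (1.01), Rrm2b, the reductase subunit that p53 induces outside S phase (0.92), and Samhd1, which degrades deoxynucleotides (0.83). Of 7 genes that maintain chromatin or DNA methylation at forks 4 fell, among them Asf1b (-1.62), Uhrf1 (-1.61) and Dnmt1 (-1.12).

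Regulators of S phase entry were mixed, to be read against 17.1% of all genes called lower and 18.8% higher. Of 25 G1/S regulators 10 fell and 1 rose (median -0.48): Mycn (-3.03), E2f8 (-2.29), Ccna2 (-1.97) and E2f1 (-1.88) were among those that fell, and Ccnd2 rose (0.76). Of 9 tested cell cycle inhibitors 3 rose and 3 fell. Ccng1 (2.25) and Cdkn1a, the p53-induced inhibitor of cyclin-dependent kinases (1.53), rose with Cdkn1c (1.19), while Cdkn2c (-1.71), Cdkn1b (-0.97) and Cdkn2b (-0.81) fell.

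Markers of cell types were read beside the replication genes in input, where 17.1% of all genes were called lower and 18.8% higher. All 12 markers of cells in mitosis, Top2a among them, fell (median -1.59), from a summed 568 and 468 CPM in control to 129 and 186 in DKO. Of 10 stem cell markers 7 fell (median -1.33, with Olfm4 at -3.04 and Lgr5 at -1.82), from 819 and 813 CPM to 230 and 340. Lymphocytes can divide too: 6 of 11 tested lymphocyte and plasma cell markers fell (median -0.73), from 164 and 165 CPM to 118 and 105, and 0 of the 12 were at 0 counts in both control or both DKO libraries. Of 10 enterocyte markers 3 fell (median -0.07). Of 8 Paneth cell markers 3 fell and 1 rose (median -0.73), from a summed 3740 and 4296 CPM to 1635 and 3129, and of 8 goblet cell markers 3 rose and 0 fell (median 0.33), with 12170 and 13490 CPM against 15040 and 12520. Of 8 epithelial markers 1 rose and 0 fell (median 0.17), and of 4 tested mesenchyme and endothelium markers 0 were called (median 0.35, with 0 at an unadjusted p under 0.05). The part of these cells in the change of the replication genes was not tested.

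Within J2 pulldowns, 1 of 38 tested genes rose and 0 fell, when 6.04% of all 13181 genes were called higher and 6.17% lower. An unadjusted p under 0.05 was found for 4 of the 38, and for 4670 of all 13181 genes. DESeq2 called 2 higher. The median log2 fold change was -0.03, against 0.03 for all genes. The summed level of the 40 genes was 471 and 443 CPM for control libraries and 415 and 586 CPM for DKO, so the DKO libraries lay on both sides of the controls. The second DKO library was above the first for 35 of the 38 genes. These values rest on a median of 29.5 and 41.5 counts per gene in the DKO libraries, against 196 and 157.5 in control. The direction depended on the DKO animal: the median was 0.35 without the first and -0.44 without the second.

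The gene that rose in J2 was Rrm2. Controls gave 279 and 203 counts and the shallower DKO libraries 231 and 145, which scales to 48.3 ± 5.26 CPM (SD, n = 2) in DKO and is 3.02-fold higher than control (SE 0.319 on the log2 scale, edgeR adjusted p 0.0404). Both DKO values, 52.0 and 44.6 CPM, were well above the controls at 17.3 and 14.7. The call was lost without TMM scaling (log2 fold change 1.48, edgeR adjusted p 0.0669) and held in the other alternatives that kept every animal. Without the first or the second control animal the log2 fold change was 1.66 and 1.42. Pcna had 97 and 69 counts against 54 and 80, or 6.03 and 5.00 CPM against 12.2 and 24.6 (log2 fold change 1.73, SE 0.494, edgeR adjusted p 0.0733), and did not pass. Mcm2 was at 0.16 (adjusted p 0.760), with 14.6 and 15.4 CPM against 15.6 and 18.2.

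Within K1 pulldowns 6 of 39 tested genes fell and 1 rose, when 13.9% of all 12888 genes were called lower and 13.1% higher, so the share that fell was near that of all genes. The median was -0.71, against -0.02 for all genes, and 30 of the 39 values were negative. Summed CPM went from 682 and 677 to 409 and 546. The genes that fell were Pola1 (-1.71), Tk1 (-1.54), Mcm4 (-1.35), Mcm6 (-1.34), Pold1 (-1.31) and Pold2 (-1.11). Mcm6 went from 35.8 and 35.1 CPM to 13.8 and 14.3 (SE 0.275, edgeR adjusted p 0.0140), and Pola1 went from 242 and 149 counts to 13 and 9 (adjusted p 0.0280).

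Rrm2 rose in K1 as well, from 332 and 270 counts to 226 and 73, which is 17.5 ± 0.561 CPM against 42.2 ± 10.3 CPM (SD, n = 2; log2 fold change 1.28, SE 0.288, edgeR adjusted p 0.0187). DKO values of 49.5 and 34.9 CPM stood clear of the controls at 17.9 and 17.1. Without the first or the second control animal the log2 fold change was 1.28 and 1.22. Pcna, at 10.7 and 12.5 against 16.2 and 29.6 CPM, did not pass (0.95, adjusted p 0.0946), nor did Mcm2 (-0.61, adjusted p 0.195). The count of 7 called genes was 14 without TMM scaling, where the median of all genes moved to -0.40, 16 without the filter on low counts, 14 in the fit of all libraries, and 3 after thinning to equal depth (2 higher and 1 lower). Without the first or the second DKO animal the log2 fold change of Rrm2 was 0.95 and 1.56.

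**Figure D4:**
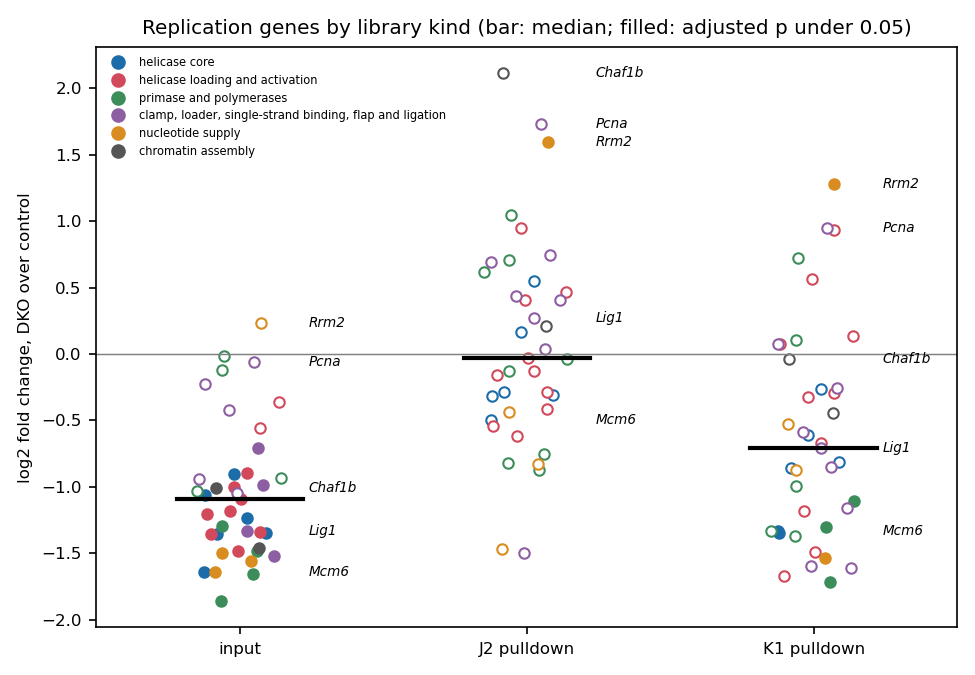
Log2 fold change of DKO over control (y axis) of the replication genes in input, J2 and K1 libraries, each fitted on its own 4 libraries. Points are genes coloured by role, filled where the adjusted p was under 0.05, and bars are the medians of -1.09, -0.03 and -0.71; Rrm2 is the filled point above 0 in both pulldowns.

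Pulldown was next set against input of the same genotype, which asks which replication transcripts the antibodies carried more or less than others. In control, J2 lowered 4 of 39 genes and raised 0, with 14.6% of all 15923 genes called lower and 15.2% higher. The median was -0.43, against -0.07 for all genes. Those lowered were Rpa3 (-3.01), Pcna (-2.41), Gins1 (-1.68) and Rfc3 (-1.48). Pcna had 393 and 471 counts in control input but 97 and 69 in the deeper J2 libraries, and its log2 CPM over input was -2.20 and -2.56 in the 2 animals (SE 0.304, edgeR adjusted p 0.00254). Rpa3 had 6 and 5 counts in J2 against 48 and 41 in input (adjusted p 0.00743). Rfc3 lay at -1.04 and -1.81 per animal. Mcm2 (-0.59, adjusted p 0.146) and Rrm2 (0.09, adjusted p 0.834) did not pass. After thinning to equal depth 1 gene was called.

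In DKO, J2 raised 8 of 39 genes and lowered 0, with 12.2% of all genes called higher and 13.4% lower. Chaf1a (2.27), Cdt1 (1.55), Rrm2 (1.46), Mcm10 (1.38), Rpa2 (1.36), Lig1 (1.19), Mcm3 (1.07) and Mcm7 (0.90) were raised, and the median of the 39 was 0.56. Chaf1a was above input by 1.65 and 2.64 in the 2 animals (SE 0.373, edgeR adjusted p 0.00654), and Rrm2 by 1.34 and 1.61 (SE 0.297, adjusted p 0.0123). Chaf1a shares 52.5% of its exon length with Ubxn6 on the other strand, so without strand its reads cannot all be assigned to it. Pcna was below input at -1.10 and -0.28 and did not pass (-0.64, adjusted p 0.142). Without TMM scaling 4 were called.

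K1 in control raised 6 of 40 genes and lowered 3, with 19.7% of all 15908 genes called higher and 20.1% lower, so the count was near or under the background. Cdt1 (1.35), Chaf1a (2.14-fold), Lig1 (0.83), Mcm10 (0.65), Rfc1 (0.64) and Fen1 (1.82, from 4 and 7 counts to 30 and 17) were raised. Chaf1a and Fen1 share 52.5% and 84.2% of their exon length with genes on the other strand, and the counts were made without strand. Rpa3 (-1.76), Pcna (-1.36) and Rfc3 (-1.22) were lowered, and these 3 were lowered by J2 as well, with the same input libraries. Cdt1 lay above input by 1.11 and 1.57 per animal (SE 0.237, edgeR adjusted p 0.00178) and Pcna below it at -1.40 and -1.30 (SE 0.236, adjusted p 0.00169). Mcm2 (0.44, adjusted p 0.210) and Rrm2 (0.20, adjusted p 0.601) did not pass. After thinning 2 genes were called. The median of 0.14 became -0.09 without TMM scaling and -0.03 with scaling that left out mitochondrial genes, where raised and lowered calls were 2 and 5, and 3 and 5.

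K1 in DKO raised 8 of 40 and lowered 1, with 14.6% of all genes called higher and 21.0% lower. Gins3 (1.96), Chaf1a (1.91), Orc1 (1.68), Cdt1 (1.46), Lig1 (1.30), Mcm3 (1.26), Rrm2 (1.12) and Mcm10 (0.98) were raised. Gins3 and Orc1 rest on few counts: 8 and 9 in K1 against 5 and 12 in input, and 12 and 3 against 6 and 11. Chaf1a shares 52.5% of its exon length with Ubxn6 on the other strand, and the counts were made without strand. Lig1 lay above input by 1.45 and 1.15 per animal (SE 0.211, edgeR adjusted p 0.00168), and Mcm3 by 1.31 and 1.26 (adjusted p 0.00693). Rpa3, with 1 and 0 counts in K1, was at or under the floor of 3 counts, so its fitted value of -3.45 is no bound. Pcna (-0.53, adjusted p 0.124) and Mcm2 (0.57, adjusted p 0.158) did not pass. Without the first or the second control animal Lig1 was at 1.27 and 1.28, and without the first or the second DKO animal at 1.09 and 1.46.

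The last comparison subtracted the enrichment over input in control from that in DKO. For J2, 1 of 39 genes was called higher and 0 lower, with 0.772% of all genes called higher and 1.94% lower. The median was 1.06, against 0.00 for all genes. Of the 39 values 38 were positive, and 19 had an unadjusted p under 0.05. Of all 15923 genes, 7974 were positive and 4121 had an unadjusted p under 0.05. By animal, the 40 genes had a median of -0.40 in each control mouse, 0.41 in the first DKO mouse and 0.72 in the second. Lig1 was the called gene, at -0.44 and -0.40 in control and 1.32 and 1.04 in DKO (difference 1.61, SE 0.319, edgeR adjusted p 0.0446). With each animal's pulldown blocked with its input the difference was 1.62 and did not pass (adjusted p 0.0771), and 0 genes of the 39 were called. Pcna (1.77, adjusted p 0.0612), Rrm2 (1.37, adjusted p 0.0989) and Mcm2 (1.08, adjusted p 0.150) were positive without passing. DESeq2 called 6, the unfiltered fit 3, the fit of all libraries 4, and the fits without TMM and after thinning 0. Without the first or the second control animal the difference of Lig1 was 1.55 and 1.45. Without the first or the second DKO animal it was 1.45 and 1.76. These differences use the same input libraries as the input comparison, where most of the genes were lower in DKO. The K1 difference uses the same input libraries too, with a median of 0.20. The part of the input values in these differences was not tested.

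For K1, 0 of 40 genes were called by edgeR, with 1.37% of all genes called higher and 4.10% lower. An unadjusted p under 0.05 was found for 4 of the 40, and for 3736 of all 15908 genes. DESeq2 also called 0. The median was 0.20, against -0.20 for all genes. By animal, K1 over input had medians of 0.08 and 0.20 for the control mice, 0.37 for the first DKO mouse and 0.30 for the second. Pcna differed by 0.83 (SE 0.342, edgeR adjusted p 0.178), Rrm2 by 0.92 (SE 0.398, adjusted p 0.197) and Mcm2 by 0.13 (SE 0.398, adjusted p 0.879).

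**Figure D5:**
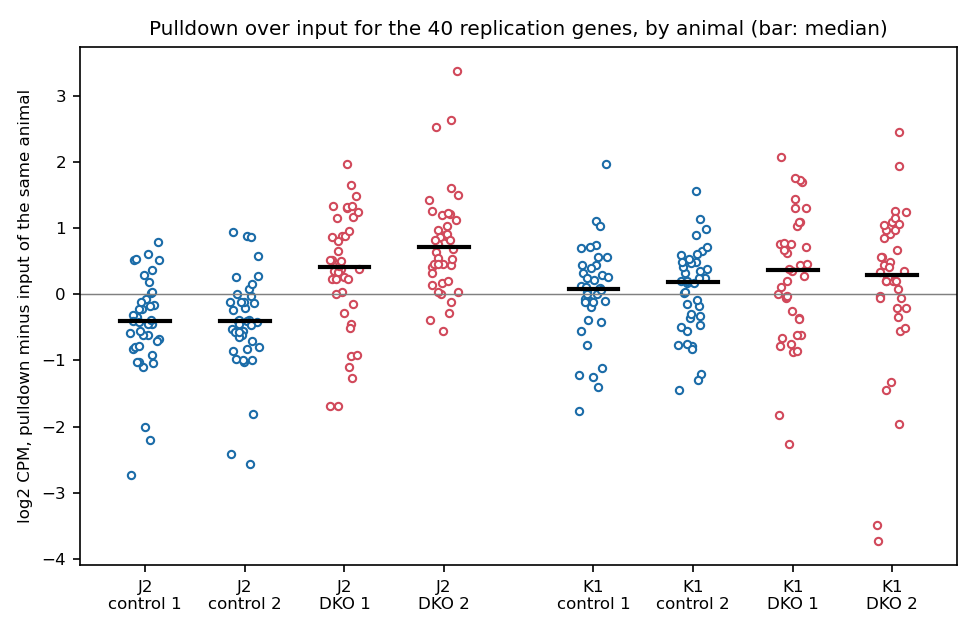
Log2 CPM of the pulldown minus log2 CPM of the same animal's input (y axis) for the 40 replication genes, by antibody and animal; points are genes and bars medians. The J2 medians are -0.40 in both control animals and 0.41 and 0.72 in DKO, while the K1 medians lie between 0.08 and 0.37.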

How the data were processed

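RNA of small-intestinal epithelium was measured in input, J2 and K1 libraries of 4 mice, 2 of each genotype. The deposited values are whole-number counts per gene, made without strand per the labels. The submitters' processing notes list STAR 2.7.10b, SAMtools 1.17, UMI-tools 1.1.4 and HTSeq 2.0.2 with the builds mm10 and GRCm38.p4, without giving each a role, so whether duplicates were removed is not given in the sources used here. Rows that name no gene (outside genes, ambiguous, not unique) held 18.7% to 61.3% of the listed reads per library and were left out. Of these, reads aligned to several places were 5.54% to 8.05% in input and control pulldowns and 15.8% to 46.7% in DKO pulldowns. No spike-in is described, so scaling removes differences in the amount of RNA pulled down.

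Symbols, exon lengths and coordinates came from GENCODE M21 (GRCm38), which 48144 of 48526 rows matched without version. Counts were tested with edgeR 4.0.16 (R 4.3.3, quasi-likelihood test, TMM, filterByExpr with a count minimum of 10) on all genes, with Benjamini-Hochberg adjusted p under 0.05. DKO was compared with control in fits of 4 libraries, and pulldown with input in fits of 8. The fits of 8 took the spread from both genotypes and from input and pulldown together. Except with the replicate block, they did not pair the libraries of 1 animal. CPM values come from the 4-library fits, and log2 CPM (prior count 2) of pulldown over input from the 8-library fits. Some of the edgeR fits were run on simulated counts with known changes. The simulation gave every library the same spread, unlike the DKO pulldowns, so it does not test the fits there. Similar transcripts were sought with blastn 2.17.0, and DESeq2 1.42.0 was an alternative, as were scaling, filter, thinning, a fit of all libraries, a replicate block and leaving out each animal. Leaving out 1 animal leaves 1 library of its genotype per library kind, so those fits are read by effect size only. Their counts of called genes are listed under the processing alternatives, but such calls are not reliable and no result rests on them. Same-numbered input and pulldown libraries come from 1 animal by their labels, and their deviations from the group mean correlated at 0.297 to 0.399 across genes.

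The 40 genes and the other lists were chosen with earlier results of these data known. Named genes were up to 3 called genes per role and every gene not called in input, and in other comparisons up to 6 called genes with a mean of at least 20 counts, called genes opposite in sign to the median, and Pcna, Mcm2 and Rrm2. Further called genes are named where a count was small. From each other process list up to 6 called genes were named, with further ones chosen after their values were seen. 1 gene that this rule names is not reported here.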

Additional observations from a re-analysis of the deposited data

Results flagged for a closer look

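Lig1 was the 1 replication gene whose J2 enrichment over input differed between DKO and control by the test of the difference itself (log2 difference 1.61, edgeR adjusted p 0.0446). It was above 0 in both DKO animals and below 0 in both control animals. Over the alternatives the difference ran from 1.30 without the filter on low counts to 2.08 after thinning. It did not pass without TMM scaling, without the filter, after thinning or in the fit that pairs each pulldown with its input (1.62, edgeR adjusted p 0.0771). For K1 the gene's difference was 0.47 (edgeR adjusted p 0.344). The levels of its input, 369 and 373 counts in control against 115 and 164 in DKO, enter the J2 difference. For DKO over control, Lig1 was at -1.33 in input and at 0.27 within J2 pulldowns (edgeR adjusted p 0.578). The part of the input values in the difference was not tested. Other genes had larger J2 differences that did not pass. Among them were Rpa2 (1.93, edgeR adjusted p 0.0592), Mcm3 (1.79, adjusted p 0.0550) and Pcna (1.77, adjusted p 0.0612), and the median of the 39 was 1.06.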

How the results depend on the processing

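The fall of the replication genes in input kept its direction in every alternative run, and 0 genes were called higher where every animal was kept. The count of 27 was 14 in the fit of all 12 libraries. With the replicate block, 29 were called, including all 27; between genotypes the animals share only a number (deviations correlated at 0.022 in input, -0.094 in J2 and -0.131 in K1). For DKO against control in J2, where 1 gene was called, the count was 0 without TMM, 2 with DESeq2, 4 without the filter and 5 in the fit of all libraries, and 0 to 14 without 1 animal. In K1, where 7 were called, it was 14, 16, 14 and 3 without TMM, without the filter, in the fit of all libraries and after thinning, and 0 to 21 without 1 animal. For J2 over input it was 1 after thinning in control (4 called; 0 to 25 without 1 animal) and 4 without TMM in DKO (8 called; 0 to 17). For K1 over input it was 2 after thinning in control (9 called; 0 to 20) and 4 to 14 without 1 animal in DKO (9 called). For the J2 difference (1 called) it was 0 without TMM, 6 with DESeq2, 3 without the filter, 4 in the fit of all libraries, 0 after thinning and 0 with the replicate block, and 0 to 27 without 1 animal. For the K1 difference (0 called) it was 0 to 2. The cause was not tested. The counts without 1 animal come from fits with 1 library of a genotype per library kind. They show how far the calls moved and were not used to judge any gene. The replicate block changed no other count by over 1.5 times.

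Some values near 0 changed sign. The median in J2 between genotypes (-0.03) was 0.02 with DESeq2, 0.20 after thinning, 0.01 with TMM without mitochondrial genes and 0.35 without the first DKO animal (-0.44 without the second). The median of K1 over input in control (0.14) was -0.09 without TMM, -0.09 after thinning and -0.03 with TMM without mitochondrial genes, and in DKO (0.29) it was -0.04 without TMM. In input, Pola2 ranged from -0.11 to 0.08 without 1 animal (0.08 and 0.06 without the second control and the second DKO animal), Prim2 from -0.48 to 0.32 (0.32 and 0.03 without the first control and the first DKO animal) and Rrm2 from -0.12 (without the first DKO animal) to 0.53. Mcm2 was -0.02 in J2 between genotypes without the filter and -0.01 to 0.31 in the K1 difference without 1 animal. Rrm2 in J2 over input in control was -0.28 without TMM, -0.41 after thinning and -0.03 to 0.18 without 1 animal, and in K1 over input in control -0.03 without TMM and -0.07 after thinning. Depth limits the DKO pulldowns most, where up to 7 of the 40 genes had at most 3 counts in a library.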
